A study of Mus musculus with 2 samples.

Results

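Heat shock proteins and chaperonins are the proteins that fold, refold and disassemble other proteins. The 76 genes described here were chosen by symbol from a table of 16463 genes. They are the genes named Hspa, Hspb, Hspd, Hspe, Hsph, Hsp90, Dnaj or Cct with a number or letter, together with Tcp1, Hsf1 and Hsf2, and without Hspbp1 and Hspbap1. The rule uses symbols and no measured value, but the set was chosen with earlier results of these data known. Of the 76, 67 had at least 20 counts in 1 library and were compared, and the other 9 had between 1 and 15 counts. Over all genes listed, 11525 passed the same minimum.

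RNA came from unstimulated bone marrow-derived macrophages, which are macrophages grown from marrow precursors in culture, here for 5 days with conditioned medium of L929 cells as a source of macrophage colony-stimulating factor. The TKO library came from mice labelled mir-106a~363-/- and mir-106b~25-/-, which lack both of these microRNA clusters, and homozygous for a floxed mir-17~92. They also carry Lyz2-Cre, in which the myeloid gene Lyz2 drives the recombinase that removes floxed DNA. The WT library came from mice with Lyz2-Cre alone, so both groups carry Cre. Both are labelled C57BL/6J. The labels give no age and no number of animals behind a library. Each genotype had 1 library, so no difference has a replicate check and no p-value was computed. All intervals of ratios are 95% intervals that cover counting error only.

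The libraries held 10656465 estimated counts in TKO and 10877917 in WT. Mir17hg, the host transcript of mir-17~92, had 42 counts in TKO and 8 in WT, which does not check the deletion because mature microRNAs were not measured. The 8 macrophage markers summed to 3790 FPKM in TKO and 3543 in WT, among them Csf1r with 893 FPKM in TKO and 975 in WT. Of these markers 4 were higher in TKO and 4 lower, and 1 was past 1.5-fold, Fcgr1, at 1.61-fold higher. FPKM is a level scaled for gene length and depth. Fibroblast markers were present and lower in TKO, with 6 of 6 lower by 1.5-fold or more and a summed level of 26.0 FPKM in TKO and 92.0 in WT. Dendritic cell markers were higher, with 3 of the 4 compared past 1.5-fold and a summed level of 42.3 FPKM in TKO and 17.6 in WT. Neutrophil markers summed to 8.22 FPKM in TKO and 5.59 in WT, and B and T cell markers to 0.86 and 2.04. The neutrophil markers differed in direction, with 21 counts of S100a8 in TKO and 9 in WT, but 19 and 52 of Mmp9. Their summed counts were 52 in TKO and 71 in WT, opposite to the summed FPKM. In bulk RNA, more cells of a type and more RNA per cell cannot be told apart.

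Chaperones work as families. HSP70 proteins bind short unfolded stretches and release them in a cycle driven by ATP, DNAJ proteins bring them clients and start that cycle, and HSP110 proteins restart it by exchanging the nucleotide. HSP90 acts later, on kinases, receptors and other nearly folded clients, and the chaperonins close around whole proteins: HSPD1 with HSPE1 in mitochondria, and CCT for actin and tubulin in the cytosol. The factor HSF1 raises the cytosolic genes after heat or other protein damage, while a separate response raises the chaperones of the endoplasmic reticulum (ER).

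The sequences that these responses read are short. The ER stress element reads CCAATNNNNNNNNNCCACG, and RefSeq windows of GRCm38.p6 from 250 bases before to 50 after each gene start were searched for it on both strands. It was found in 3 of the 62 members that had a window, which were Hspa5, Hsp90b1 and Dnajc3, against 0.137% of all 27025 genes with one. The elements are shown because Hspa5 and Hsp90b1 were higher in the TKO library beyond counting error, while Dnajc3 with the same letters had a log2 ratio of -0.04. The capitals mark the fixed letters, and each run reads 5′ to 3′ on the strand that carries the element.
Hspa5 (chr2:34772020-34772049, plus strand): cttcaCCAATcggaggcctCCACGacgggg
Hsp90b1, upstream (chr10:86705632-86705661, minus strand): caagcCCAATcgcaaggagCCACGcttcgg
Hsp90b1, downstream (chr10:86705528-86705557, plus strand): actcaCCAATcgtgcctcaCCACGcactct
Dnajc3 (chr14:118937822-118937851, plus strand): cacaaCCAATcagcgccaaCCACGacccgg
The elements begin 65 bases before the start of Hspa5, 105 before that of Dnajc3, and 212 and 107 before that of Hsp90b1, where the nearer one lies on the opposite strand.

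The heat shock element, to which HSF1 binds, was searched for as GAANNTTCNNGAA on both strands. It was found in Dnajb6, Hspd1, Hspe1 and Hsph1, or 4 of 62 members, against 0.662% of all genes with a window. Hspd1 and Hspe1 lie head to head and share 1 copy, which can be read on both strands in overlapping frames. That copy is shown because 1 sequence serves a pair of genes, and the Dnajb6 copy because that gene has the highest mean FPKM of its class. None of the 4 genes passed 1.5-fold.
Hspe1 and Hspd1 (chr1:55088056-55088085, plus strand): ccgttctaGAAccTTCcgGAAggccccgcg
Dnajb6 (chr5:29735844-29735873, plus strand): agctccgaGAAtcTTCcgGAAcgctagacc
These are matches of letters and not measured binding. The heat-inducible genes Hspa1a, Hspa1b, Dnajb1 and Hspb1 were searched and had no match to the exact letters used for the heat shock element. The windows of Hspa8, Hsp90aa1, Hsp90ab1, Hspa9, Hspa13, Hsf1, Cct4, Hspb2, Dnajc2, Dnajc5, Dnajc11, Dnajc12, Dnajc18 and Dnajc30 were not searched.

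None of the 67 compared members was called at 2-fold between the genotypes. That call requires a 2-fold difference, an interval that excludes no change and at least 20 counts, and 4.73% of all compared genes met it (2.43% higher and 2.3% lower). With 1.5-fold in place of 2-fold and the same other conditions, which is what passing 1.5-fold means throughout, Hspa8, Dnajc19 and Dnajc4 were higher in TKO and Hspa1b was lower. These 4 genes are 5.97% of the members, against 10.6% of all compared genes at that threshold (5.13% higher and 5.52% lower). The median log2 ratio of TKO over WT was 0.030 over the members and 0.0043 over all genes. The interval alone excluded no change for 16 members that were higher and 7 that were lower, against 21.8% and 22.7% of all genes. The log2 ratio lay within 0.5 of 0 for 60 of the 67 members, or 89.6%, against 83.7% of all genes.

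**Figure D1:**
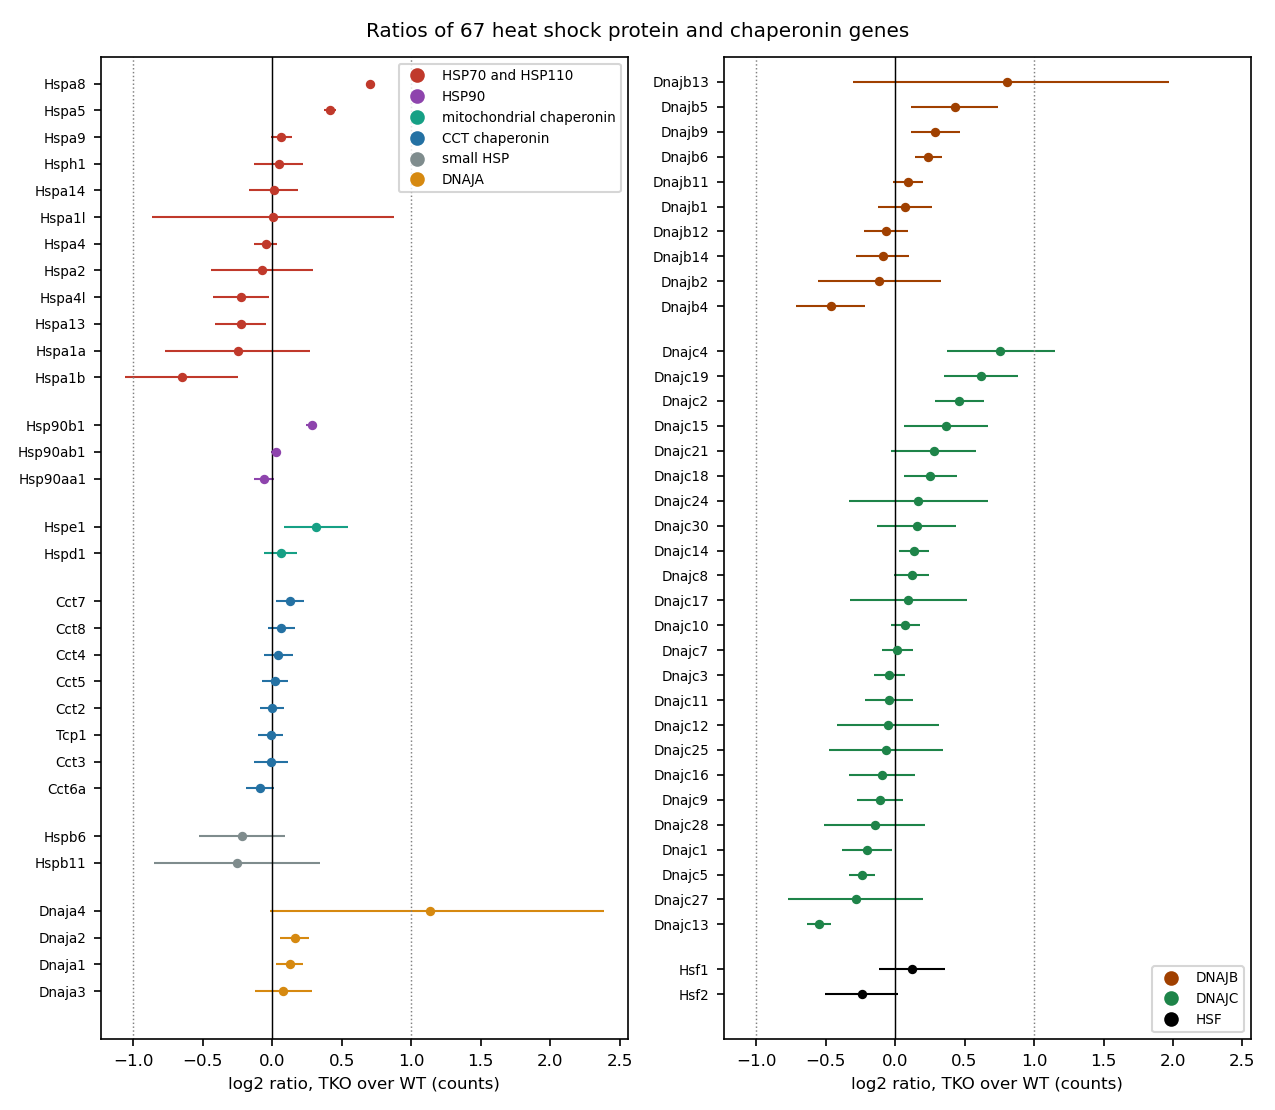
Log2 ratio of TKO over WT for the 67 members with at least 20 counts in 1 library, by family, with 95% counting intervals; dotted lines mark 2-fold. The points lie between -0.65 (Hspa1b) and 1.14 (Dnaja4), and the interval of Dnaja4, the 1 point beyond a dotted line, includes 0.

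Hspa8 had the largest difference in counts of any member. It encodes the constitutive cytosolic HSP70 also known as HSC70, which also strips clathrin from vesicles. Hspa8 (Entrez 15481, chromosome 9, 40801276 to 40805202) had 26837 counts in TKO and 17228 in WT, or 1197 and 753 FPKM. It was 1.63-fold higher in TKO (1.60 to 1.66). Hspa8 was the most abundant member in both libraries, ranking 37 by FPKM in TKO and 64 in WT among all genes. A higher ratio was seen in 4 of the 103 genes that reached 10000 counts in either library. It held 24.5% of all member counts in TKO and 17.5% in WT. The 76 members summed to 109427 counts in TKO and 98513 in WT, 1.16-fold more, and without Hspa8 the sums were 82590 and 81285, 1.06-fold more. The snoRNA genes of the Snord14 group lie within Hspa8, and the 1 listed in the table, Snord14e, had 4 counts in TKO and 0 in WT.

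The heat-inducible HSP70 genes were not higher in TKO. Hspa1a and Hspa1b encode the heat-inducible HSP70 and are near-identical neighbours, so the division of reads between them is uncertain. Hspa1b (Entrez 15511, chromosome 17, 34956429 to 34959238) had 84 counts in TKO and 138 in WT, and was 1.57-fold lower in TKO (1.19 to 2.08). Hspa1a (Entrez 193740, 34969359 to 34972156) had 58 counts in TKO and 72 in WT, with an interval of the log2 ratio that includes 0 (-0.77 to 0.27). Added together the pair had 142 counts in TKO and 210 in WT, 1.41-fold lower (1.14 to 1.76), below the 1.5-fold threshold. At 2.80 FPKM in TKO and 4.50 in WT for Hspa1b, the inducible genes stood far under Hspa8. Hspa1l, a relative best known from testis that lies beside them, had 24 counts in TKO and 25 in WT.

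The 3 genes lie in the class III segment of the major histocompatibility complex. Their nearest compared neighbours were Ehmt2, Neu1, 1110038B12Rik, Lsm2, D17H6S56E-5 and Vars, with log2 ratios between -0.10 for 1110038B12Rik and 0.33 for Neu1. None of these 6 passed 1.5-fold.

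Hspa5 and Hsp90b1, the chief HSP70 and HSP90 of the ER, were the next largest differences in transcript number. Hspa5 (BiP; Entrez 14828, chromosome 2, 34772090 to 34776529), which also restrains the ER stress sensors, had 10450 counts in TKO and 8196 in WT, or 385 and 296 FPKM. It was 1.33-fold higher in TKO (1.30 to 1.37). Hsp90b1 (GRP94; Entrez 22027, chromosome 10, 86690841 to 86705444), which folds Toll-like receptors and integrins, had 10433 counts in TKO and 8976 in WT, or 353 and 298 FPKM, 1.22-fold higher (1.18 to 1.25). Neither reached 1.5-fold. Among the 329 genes that reached 5000 counts in either library, 31 had a higher ratio than Hspa5 and 61 a higher ratio than Hsp90b1.

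The cytosolic HSP90 genes had ratios near 0. Hsp90ab1, the constitutive form, had 434 FPKM in TKO and 437 in WT, a log2 ratio of 0.03 (-0.01 to 0.07). Hsp90aa1, the inducible form, had 91.0 FPKM in TKO and 97.3 in WT, a log2 ratio of -0.06 (-0.13 to 0.02). Together with Hspa8, Hspa5 and Hsp90b1, Hsp90ab1 made up 55.1% of the summed member FPKM in TKO and 48.3% in WT.

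**Figure D2:**
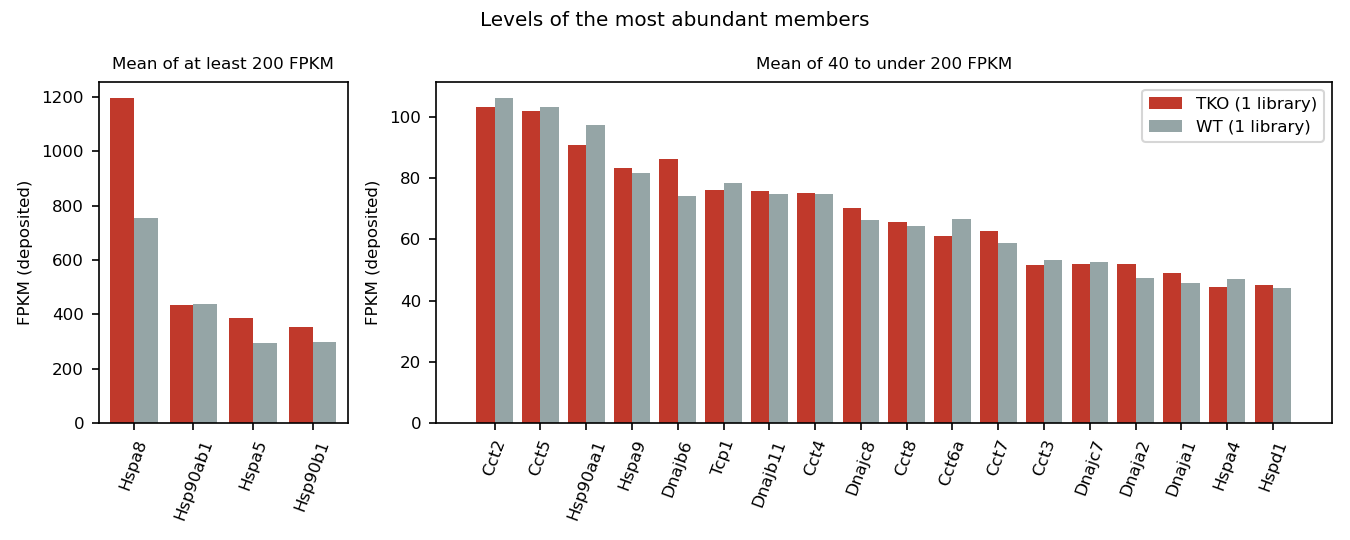
Deposited FPKM of the 22 members with a mean of at least 40 FPKM, in the TKO library (left bar of each pair) and the WT library (right bar). Hspa8 stands at 1197 FPKM in TKO and 753 in WT, Hspa5 and Hsp90b1 also have the taller bar in TKO, and most other pairs are nearly equal.

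The remaining HSP70 genes were near equal. Hspa9, the mitochondrial HSP70 that pulls proteins through the import channel, had 2736 counts in TKO and 2737 in WT. The HSP110 gene Hspa4 had 2228 counts in TKO and 2411 in WT, and Hsph1, the heat-inducible HSP110, had 523 and 530. Hspa4l (log2 ratio -0.22, -0.42 to -0.02) and the ER gene Hspa13 (-0.23, -0.41 to -0.04) had intervals just below 0. Hspa14, which sits on ribosomes, and Hspa2 had intervals that include 0. Over the 12 compared HSP70 and HSP110 genes 6 ratios lay above 0 and 6 below. Hspa12a and Hspa12b had at most 15 counts.

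All 8 subunits of the cytosolic chaperonin CCT had ratios near 0. CCT is a double ring in which each subunit gene contributes its own position. The log2 ratios ran from -0.09 for Cct6a to 0.13 for Cct7, with a median of 0.0091 and an SD over subunits of 0.064. Across 1323 genes with counts in the same range the SD was 0.50, and 36.7% of those genes had an absolute ratio no larger than the largest among the subunits, so a ratio of this size is common for a single gene. Cct7 was the 1 subunit with an interval that excluded 0 (0.03 to 0.23). The levels were less even than the ratios. Cct2 was highest, with 103 FPKM in TKO and 106 in WT, followed by Cct5 with 102 and 103. Tcp1, Cct4, Cct8, Cct7 and Cct6a lay between, and Cct3 was lowest, with 51.5 FPKM in TKO and 53.3 in WT. The highest subunit was 2.01-fold above the lowest in TKO and 1.99-fold in WT. Cct6b, the testis form of the zeta subunit, had 1 count in each library.

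The mitochondrial chaperonin genes lie head to head, and neither passed 1.5-fold. Hspd1, the ring subunit, had 1126 counts in TKO and 1130 in WT, a log2 ratio of 0.06 (-0.06 to 0.18). Hspe1, the lid, had 353 counts in TKO and 297 in WT, a log2 ratio of 0.31 (0.09 to 0.54). With the trend of the ratio over gene length removed, Hspe1 was at 0.09. Its length of 788 bases is in the range where the median over all genes was 0.23. The annotations of the genes overlap at their 5′ ends, and pseudogenes of both are annotated, so their counts are uncertain.

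Most genes of small heat shock proteins, which hold damaged proteins without ATP, had few counts. Of 7 genes 2 reached the count minimum. Hspb6 had 161 counts in TKO and 196 in WT, and Hspb11, whose product works in cilium transport, had 45 and 56, and both intervals include 0. Hspb1, the inducible small heat shock protein, had 11 counts in TKO and 15 in WT. Hspb2, Hspb7, Hspb8 and Hspb9 had between 1 and 9 counts.

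The class A DNAJ genes, which feed clients to HSP70, all had ratios above 0. Dnaja1 had 1786 counts in TKO and 1712 in WT (log2 ratio 0.13, 0.03 to 0.22), and Dnaja2 had 1575 and 1473 (0.16, 0.06 to 0.27). Dnaja3, the mitochondrial form, was at 0.08 with an interval that includes 0. Dnaja4 had the highest point ratio of all members, 1.14, but on 21 counts in TKO and 10 in WT, with an interval of -0.01 to 2.39.

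Among 10 class B genes none was called at 1.5-fold. Dnajb6, a suppressor of protein aggregation with the highest mean FPKM of them, had 86.4 FPKM in TKO and 74.1 in WT (log2 ratio 0.24, 0.14 to 0.34). Dnajb9, an ER partner of BiP, had 578 counts in TKO and 495 in WT (0.29, 0.11 to 0.47), and Dnajb5 had 197 and 153 (0.43, 0.12 to 0.74). Dnajb4 went the other way, with 230 counts in TKO and 332 in WT (-0.46, -0.71 to -0.22). Dnajb1, the classical heat-inducible partner of HSP70, had 448 counts in TKO and 446 in WT. Dnajb13 had the highest ratio of the class, 0.80, on 20 counts in TKO and 12 in WT, with an interval of -0.30 to 1.97.

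The class C genes share little beyond the J domain, and 2 of the 24 compared were called at 1.5-fold. Dnajc4 (Entrez 57431, chromosome 19, 6987911 to 6992591) had 147 counts in TKO and 91 in WT, 1.69-fold higher in TKO (1.29 to 2.22). Dnajc19 (Entrez 67713, chromosome 3, 34057280 to 34081354), which stimulates HSP70 at the mitochondrial import channel, had 286 counts in TKO and 195 in WT, 1.54-fold higher (1.28 to 1.85). It overlaps Fxr1 in the annotation, which had 1383 counts in TKO and 1409 in WT, and a Dnajc19 pseudogene is annotated. Dnajc2, a ribosome-bound cochaperone, had 611 counts in TKO and 464 in WT (log2 ratio 0.46, 0.29 to 0.64).

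At the low end, Dnajc13 (Entrez 235567, chromosome 9, 104151597 to 104263608), an endosomal protein that acts in receptor sorting, had 1871 counts in TKO and 2864 in WT. It was 1.46-fold lower in TKO (1.38 to 1.55), just inside 1.5-fold. Dnajc5, the cysteine string protein of secretory vesicles, had 1624 counts in TKO and 2001 in WT (-0.24, -0.33 to -0.14). Dnajc8, a nuclear member and the most abundant of the class, had 70.1 FPKM in TKO and 66.2 in WT. Of the 24 compared class C genes 13 lay above 0 and 11 below, with a median of 0.046. Dnajc6, an uncoating partner of HSC70 in neurons, had 6 counts in TKO and 4 in WT.

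Gene length moved with the ratio in this class and across the table. Over the 24 class C genes Spearman's rho between length and log2 ratio was -0.62, and over all 11525 genes it was -0.45. These are descriptions across genes of the same 2 libraries. Dnajc15, Dnajc19 and Dnajc4 have 671, 746 and 841 bases, and Dnajc13 has 7697. With a smooth trend over length removed, Dnajc4 was at 0.54, Dnajc19 at 0.39 and Dnajc13 at -0.24, and none of them passed 1.5-fold. Hspa8 at 0.62 and Hspa1b at -0.68 still did, as the only members, while 9.28% of all genes did. Hspa5 was then at 0.37 and Hsp90b1 at 0.25.

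**Figure D3:**
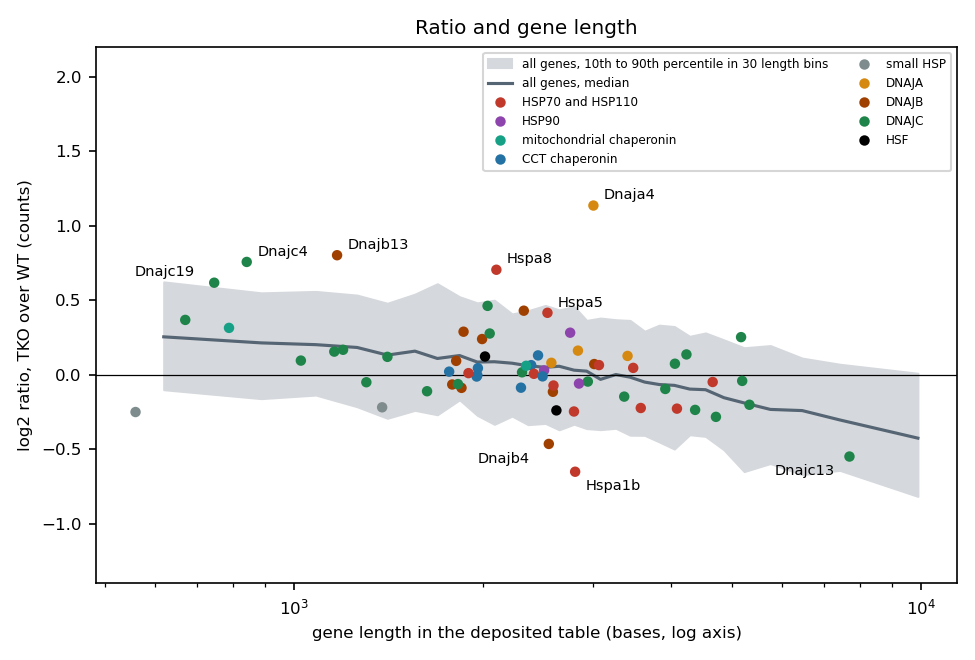
Log2 ratio of TKO over WT against gene length (log axis) for the 67 compared members, coloured by family, over the 10th to 90th percentile band and median of all compared genes in 30 length bins. The band slopes down with length, and Dnajc13 lies inside it. Several members lie outside it, among them Hspa8 (0.71), Dnajc4 (0.76) and Dnaja4 (1.14) above, and Hspa1b (-0.65) and Dnajb4 (-0.46) below.

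The heat shock factors, of which HSF1 raises cytosolic chaperone genes after heat, were at similar RNA levels. Hsf1 had 309 counts in TKO and 297 in WT (log2 ratio 0.12, -0.11 to 0.36), and Hsf2 had 217 and 268 (-0.24, -0.50 to 0.02).

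Genes that work with the chaperones were taken from 4 lists. Of 31 cochaperones of HSP70 and HSP90 none passed 1.5-fold, and the median log2 ratio was 0.048. Bag1, a nucleotide exchange factor of HSP70 and the most abundant, had 145 FPKM in TKO and 123 in WT. Bag3, an HSF1 target, had 1482 counts in TKO and 1340 in WT (0.21, 0.10 to 0.32). Fkbp5, a glucocorticoid-induced HSP90 partner, had 198 counts in TKO and 296 in WT (-0.51, -0.78 to -0.25). Of 10 prefoldin subunits and chaperonin cofactors 9 lay above 0 and none passed 1.5-fold. Their median was 0.26, and 0.13 with the length trend removed, and Pfdn5, the most abundant, had 171 FPKM in TKO and 137 in WT. Of 12 mitochondrial quality control genes none passed 1.5-fold and the median was 0.015. Trap1, the mitochondrial HSP90 and the most abundant of them, had 653 counts in TKO and 679 in WT.

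In the ER folding list 2 of 28 genes passed 1.5-fold upward and 2 downward, with 5.13% of all compared genes higher and 5.52% lower at that threshold. Of the 28 genes 20 lay above 0, against 5833 of all 11525, and the median log2 ratio was 0.14. Ddit3 (CHOP), a transcription factor of ER stress, had 287 counts in TKO and 175 in WT, 1.72-fold higher (1.42 to 2.08). Manf, a secreted partner of BiP, had 1020 counts in TKO and 670 in WT, 1.59-fold higher (1.44 to 1.76). Ern1, which encodes the stress sensor IRE1-alpha, had 445 counts in TKO and 726 in WT, 1.56-fold lower (1.38 to 1.76). With the length trend removed, Ddit3 was at 0.57 and Ern1 at -0.57, and neither passed 1.5-fold. Manf at 0.60 and Serpinh1 at -1.22 still did. Calr, a lectin chaperone and the most abundant of the list, had 666 FPKM in TKO and 518 in WT.

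Serpinh1 (HSP47), the collagen chaperone, had 132 counts in TKO and 307 in WT. It was 2.22-fold lower in TKO (1.81 to 2.75) and the 1 gene of these lists past 2-fold. Fibroblast markers were lower in the same library. Col1a1, for example, had 693 counts in TKO and 2871 in WT, and the part of such cells in the Serpinh1 value was not tested.

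The ER stress element was found in 6 of the 24 genes of this list that had a window. Their log2 ratios were 0.40 for Calr, 0.04 for Canx, 0.45 for Creld2, 0.26 for Ero1lb (listed as Ero1b in RefSeq), 0.16 for Pdia6 and 0.07 for Syvn1. Among the members that carry it, Hspa5 was at 0.42, Hsp90b1 at 0.28 and Dnajc3 at -0.04 (-0.15 to 0.07). Dnajb9 had no match to these letters in its window. The 8 members that work in the ER, grouped after their values were seen, had a median of 0.084 with 5 of 8 above 0. The 8 mitochondrial members had 0.12 with 7 of 8 above 0, while 5833 of all 11525 genes lay above 0. With the length trend removed, the median was 0.14 for the ER members and 0.050 for the mitochondrial members, so their order depended on the trend.

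**Figure D4:**
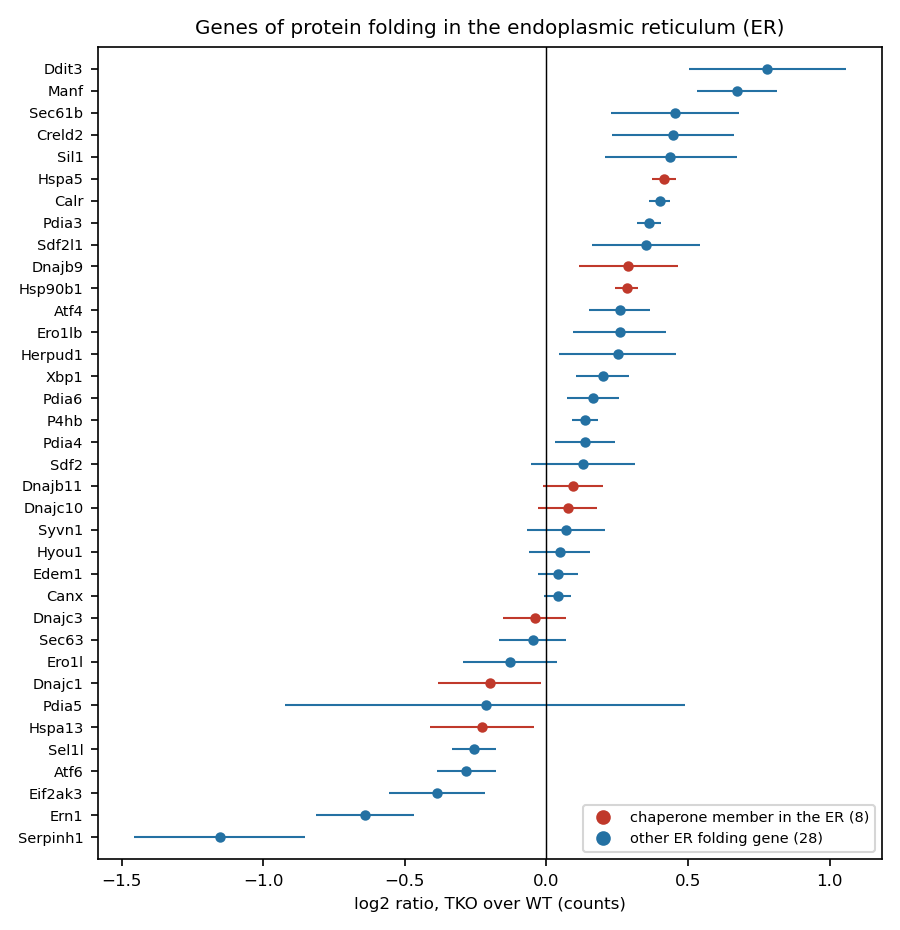
Log2 ratio of TKO over WT with 95% counting intervals for the 8 chaperone members of the endoplasmic reticulum and 28 other genes of folding and stress signalling there. Ddit3 (0.78) and Manf (0.67) are at the top, Hspa5 (0.42) is the highest member, and Ern1 (-0.64) and Serpinh1 (-1.15) are at the bottom.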

How the data were processed

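The deposited table holds expected counts and FPKM per gene for 1 library of each genotype, and every column of per-sample values was matched to its library by genotype. RSEM 1.2.12, Bowtie2 2.2.5, HISAT2 2.0.4 and the mm10 build are named, per the submitters' processing notes, without their roles. The annotation, filters and strand handling of the counting are not stated. The expected counts deposited by the authors are estimated reads per gene. The FPKM values deposited by the authors, so named per the file headers, are listed at 0.01 for genes at 0 counts. The length in bases per gene is also the authors', per the file headers.

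Here the expected counts were rounded, and TMM factors of 0.988 for TKO and 1.01 for WT were computed (edgeR 4.0.16, R 4.3.3). Log2 ratios had no pseudocount, except that an observed 0, which no member had, was set to 3 counts. Intervals were 95% exact conditional binomial (Clopper-Pearson). No molecular identifiers are named, so reads are not independent molecules and the intervals cover counting error only. Calls were made by size, with no test: 2-fold or 1.5-fold, an interval that excludes no change and at least 20 counts in 1 library. The 2-fold calls were checked on simulated counts that held no spread between cultures, and the 1.5-fold calls were not checked. Gene positions and windows of 300 bases came from RefSeq on GRCm38.p6, the assembly behind mm10, where all 76 members matched by Entrez identifier. The length trend was a lowess fit (span 0.3) over log length.

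The members and lists were chosen with earlier results of these data known. Named were, in each family, the most abundant member, the highest and lowest ratio and members past 1.5-fold, with a set of well-known members and all CCT genes; in other lists the most abundant and those past 1.5-fold. Other genes named were chosen after their values were seen. Alternatives were scaling by library totals, DESeq2 1.42.0 size factors, FPKM on the log2 scale with a pseudocount of 1, a count minimum of 100 or none, 4-fold, a 99% interval and the length trend removed.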

Additional observations from a re-analysis of the deposited data

How the results depend on the processing

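No member was called at 2-fold under scaling by library totals, DESeq2 size factors or FPKM with a pseudocount of 1. None was called without a count minimum or with the length trend removed. A count minimum of 100, a 4-fold threshold and a 99% interval can only remove calls, so they could not change this result. With a 1.5-fold threshold 4 were called. The median of all members ran from -0.021 with the length trend removed to 0.045 with no count minimum. The trend removal took the mitochondrial chaperonin median to 0.047, against 0.19 as reported, and that of the small heat shock proteins to -0.44, against -0.23. The other family medians stayed within an interval of the median taken by rank over members, which does not measure counting error. For CCT, HSP90, the class A DNAJ genes and the heat shock factors it was the whole range of the members, so it is a weak check. Hspa8, Dnajc19, Dnajc4 and Hspa1b kept their sign under all 6 settings of scaling, unit, count minimum and trend, with Hspa8 between 0.62 and 0.71. The count minimum leaves a ratio unchanged. Library totals moved each log2 ratio by -0.036 and DESeq2 size factors by -0.019, so these settings could not change the sign of such genes. Named members left their own counting interval in 7 cases with the trend removed, in 2 with FPKM and in 1 with library totals, Hspa8 each time among them. With 1 library per genotype the spread between cultures is unknown and is not part of any interval. No paired analysis was possible because each genotype had 1 library.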
